A study of Homo sapiens with 4 samples.

Results

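The genes described here encode the subunits of the oxidative phosphorylation machinery, from the nuclear and from the mitochondrial genome, in glioblastoma cells. Members were taken by name: protein-coding genes of GENCODE 29 whose symbols start with NDUFA, NDUFB, NDUFC, NDUFS, NDUFV, UQCR, COX4 to COX8, ATP5, MT-ND, MT-CO, MT-CYB or MT-ATP, and SDHA to SDHD, without the NDUFAF assembly factors. This gave 104 genes of the 58226 gene IDs in the count files. The nuclear genome held 91 of them, with 40 in complex I, 4 in complex II, 9 in complex III, 17 in complex IV and 21 in complex V, and the mitochondrial genome held 13, with 7, 1, 3 and 2 in complexes I, III, IV and V. A choice by name also takes in genes that are not subunits in the strict sense, such as ATP5IF1, the inhibitor of ATP synthase, ATP5S, COX7A2L, and the read-through genes ATP5MF-PTCD1 and NDUFC2-KCTD14. It places NDUFA4 in complex I, although the protein is now known as a subunit of complex IV. It also leaves out CYC1, a subunit of complex III, which is counted below with the electron carriers.

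RNA-seq had been run on 4 libraries of U87MG, a human glioblastoma cell line, with 1 library in each group. TMZ-resistant U87MG cells (R-U87MG), which are kept in medium with 50 μM temozolomide (TMZ), received non-targeting control siRNA (si-NC) or siRNA against HDAC6 (si-HDAC6). Parental U87MG cells received si-NC or siRNA against the long non-coding RNA LINC00461 (si-LINC00461). The control siRNA and that against HDAC6 were pools of several sequences, whereas a single target sequence is listed for LINC00461, and cells were harvested for RNA 72 h later. In R-U87MG the control library held 16639551 counts and the si-HDAC6 library 12596072. In U87MG the control held 20027866 and the si-LINC00461 library 17777046. With 1 library per group no difference has a replicate check, so no test was made, and the 95% intervals given after the log2 ratios are exact Clopper-Pearson counting intervals that cover counting error only. The targeted genes checked the labels: HDAC6 went from 296 counts in its control to 67, and LINC00461 from 363 to 73. Genes of the mesenchymal glioma cell line type (VIM, CD44, FN1, SPARC, NES) were counted in every library, whereas the astrocyte marker GFAP had between 0 and 13 counts, AQP4 and MOG had 0 and PTPRC had at most 3. Some markers of the cell line type and of other cell types differed between libraries. In the order R-U87MG control, R-U87MG si-HDAC6, U87MG control and U87MG si-LINC00461, OLIG2 had 92, 115, 15 and 18 counts, SNAP25 had 435, 265, 1075 and 2057, and PECAM1 had 27, 16, 52 and 433. CDH5, also endothelial, had 6, 1, 7 and 14. VIM had 109209, 87418, 126719 and 56351 counts, and FN1 had 32965, 23887, 92828 and 177341. The part of these differences in the results below was not tested.

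Oxidative phosphorylation couples the transfer of electrons to the making of ATP across the inner mitochondrial membrane. Complex I takes electrons from NADH and complex II takes them from succinate, both hand them to ubiquinone, complex III passes them on to cytochrome c, and complex IV reduces oxygen. Protons pumped on the way drive complex V, the ATP synthase. The mitochondrial genome encodes hydrophobic subunits in the membrane cores of complexes I, III, IV and V, complex II is wholly nuclear, and both genomes must supply their share for assembly. Glioblastoma cells are known for high aerobic glycolysis, and many of them respire as well.

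Of the 104 genes, 94 had a mean of at least 1 CPM (counts scaled to the library total) in each knockdown comparison, 81 nuclear and 13 mitochondrial, and these were compared. NDUFA3 and NDUFA6 were listed at 0 in all 4 libraries. The tissue-restricted isoforms COX4I2, COX6A2, COX6B2 and COX8C, and the ATP5MG-like gene ATP5MGL, were also listed at 0, COX7A1 had 1 count in the R-U87MG control and 0 in the other libraries, and COX7B2 had 2 counts in U87MG si-NC and 0 elsewhere. At this depth 3 counts correspond to 0.150 to 0.238 CPM. The remaining member, NDUFA4L2, passed the filter only between the control libraries.

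The sequences below are shown because they set how fragments can be assigned among members. ATP5MC1, ATP5MC2 and ATP5MC3 encode one and the same mature c subunit, the ring protein of ATP synthase. Their last 231 coding bases, for 77 identical residues, differ among the 3 genes at 57 positions. The opening 60 of these bases, in GENCODE 29 on GRCh38, are given with differing bases in capitals, at chr17:48895216-48895275 on the plus strand for ATP5MC1, chr12:53669207-53669266 on the minus strand for ATP5MC2 and chr2:175179116-175179175 on the minus strand for ATP5MC3.
ATP5MC1: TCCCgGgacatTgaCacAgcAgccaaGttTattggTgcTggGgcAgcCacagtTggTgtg
ATP5MC2: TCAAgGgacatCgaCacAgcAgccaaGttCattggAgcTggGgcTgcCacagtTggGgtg
ATP5MC3: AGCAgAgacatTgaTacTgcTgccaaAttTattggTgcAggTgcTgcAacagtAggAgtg
In this stretch of 231 bases, ATP5MC1 and ATP5MC2 were 88.3% identical, and ATP5MC3 was 80.1% identical to each of them. The 3 mRNAs can therefore be told apart although their mature protein is the same, and no more than 8.96% of the 50-base stretches of any of the 3 genes (ATP5MC2) occurred in the exons of another gene.

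Among the mitochondrial genes, MT-ATP8 and MT-ATP6 overlap, as do MT-ND4L and MT-ND4, in different reading frames of bicistronic mRNAs. The overlaps are given in capitals with the 10 bases before them, at chrM:8517-8572 and chrM:10750-10766 on the plus strand.
MT-ATP8 and MT-ATP6: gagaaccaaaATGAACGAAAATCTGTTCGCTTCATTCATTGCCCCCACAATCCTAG
MT-ND4L and MT-ND4: acctactccaATGCTAA
The overlap held 46 bases in the former pair and 7 in the latter, and a fragment that lies within an overlap belongs to both genes of the pair. Fragments are also shared with copies of mitochondrial DNA in the nuclear genome. Of the 50-base stretches of MT-CO1, 49.5% occurred in another gene, the copies MTCO1P12 or MTCO1P40, compared with 46.7% for MT-ATP6, 43.6% for MT-ND2 and 0% for MT-ND3 and MT-ND4L. The annotated copies of MT-ATP6 held 24.55%, 23.0%, 22.9% and 22.85% of the counts of gene and copies together in the 4 libraries, in the order given above. For MT-ND2 this share was between 5.23% and 7.08%, and for MT-CO1 it was at most 0.413%. Among the nuclear members, 83.7% of the stretches of ATP5MF-PTCD1 and 80.0% of those of NDUFC2-KCTD14 were shared with the genes they read through, and 29 of the 104 members shared none.

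The mitochondrial mRNAs stood far above the nuclear ones. Per length, the median of the 13 mitochondrial genes was 4707 TPM (counts per length, scaled to a common library sum) in R-U87MG si-NC, 4202 in R-U87MG si-HDAC6, 5234 in U87MG si-NC and 5826 in U87MG si-LINC00461. The median of the 81 nuclear genes was 125, 130, 106 and 108 TPM in the same order, so the medians stood in ratios of 37.5, 32.4, 49.5 and 53.9. These ratios do not follow the same genes. The mitochondrial median fell on MT-ND1 in R-U87MG si-NC, MT-CYB in U87MG si-NC and MT-ATP6 in both knockdown libraries. MT-ND1 itself was at 4853 TPM after si-HDAC6, and MT-ATP6 went from 6553 to 5826 TPM after si-LINC00461. The sums over the 13 genes were 64638, 63792, 81346 and 85386 TPM. MT-CO1, the catalytic subunit of complex IV, was the highest member in every library, from 11678 TPM in R-U87MG si-NC to 18082 TPM in U87MG si-LINC00461. At the low end of the mitochondrial genes lay MT-ND3 in the R-U87MG libraries (1019 and 1076 TPM) and MT-ND6 in the U87MG libraries (653 and 733 TPM). The part of RNA selection during library making in these levels was not tested. The highest nuclear level was that of ATP5F1B, the catalytic β subunit of ATP synthase, in the R-U87MG libraries (635 and 641 TPM), of COX4I1 in U87MG si-NC (373 TPM) and of ATP5MF in U87MG si-LINC00461 (382 TPM).

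Within complexes, the median level of the nuclear genes was lowest in complex I, between 74.0 and 89.7 TPM, and in complex IV it lay between 131 and 186 TPM. Complex I ranged from NDUFA9 at 12.9 TPM to NDUFS8 at 275 TPM in U87MG si-NC, complex II from SDHD at 45.4 to SDHC at 344, and complex III from UQCRC2 at 16.4 to UQCRB at 345. Complex IV lay closer together, from COX7A2 at 80.8 TPM to COX4I1 at 373 TPM. The c subunit genes differed in level. ATP5MC1 had 79.8, 106, 32.9 and 38.1 TPM in the 4 libraries, ATP5MC2 had 252, 303, 180 and 222, and ATP5MC3 had 288, 254, 191 and 209. ATP5MC1 was thus the lowest of the 3 in each library.

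As shares of all counts, the 13 mitochondrial mRNAs made up 2.83% (95% interval 2.82 to 2.83) in R-U87MG si-NC and 2.82% (2.81 to 2.83) in R-U87MG si-HDAC6. They made up 3.58% (3.57 to 3.58) in U87MG si-NC and 3.92% (3.91 to 3.93) in U87MG si-LINC00461. The nuclear members held 0.522%, 0.549%, 0.407% and 0.390%. The parental libraries were thus higher in the mitochondrial share and lower in the nuclear share than the R-U87MG libraries. These differences depend on the scaling. Between the 2 controls, total counts place every gene of R-U87MG higher by 0.26 on the log2 scale than the TMM scaling used below. With TMM, the log2 ratio of summed counts in R-U87MG relative to U87MG was 0.10 for the nuclear members and -0.60 for the mitochondrial ones. The mitochondrial rRNAs, MT-RNR1 and MT-RNR2, held 0.501%, 0.517%, 0.656% and 0.843%. These are shares of what was sequenced, and the part of RNA selection in them was not tested. In such libraries fewer cells with high levels and less RNA per cell cannot be told apart.

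**Figure D1:**
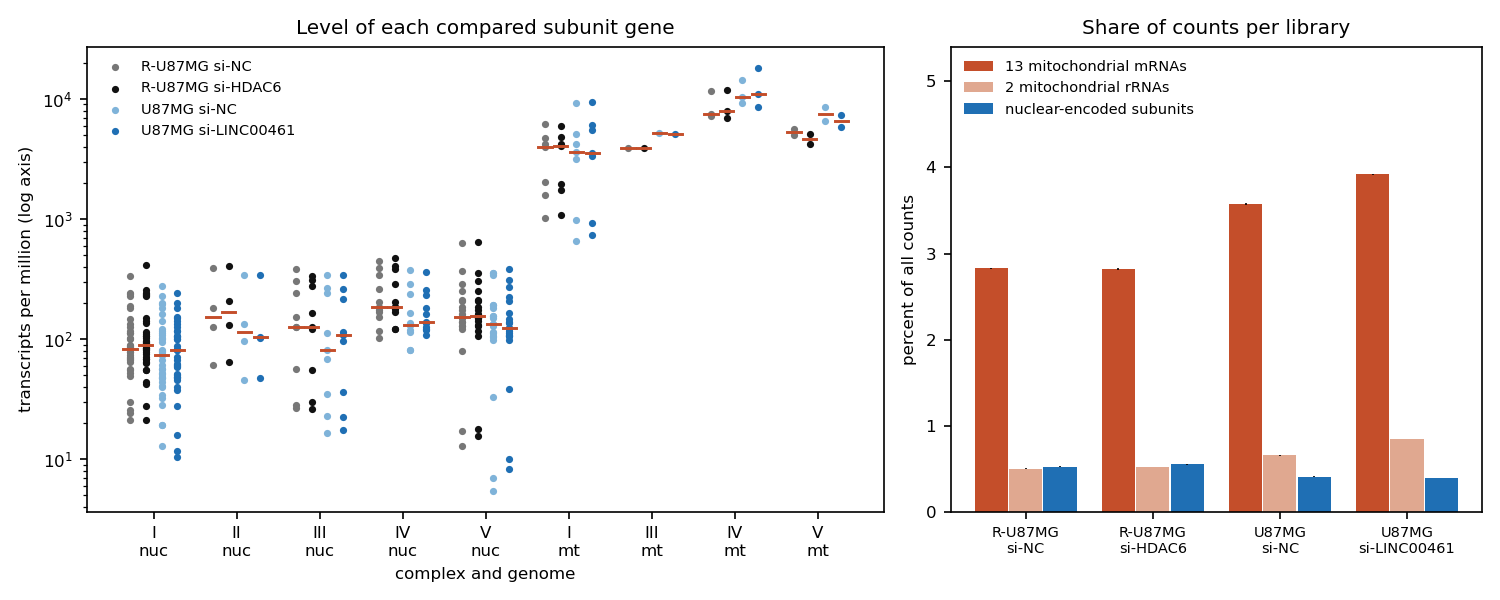
Left, level of each compared subunit gene in TPM on a log axis, by complex and genome (nuc, nuclear; mt, mitochondrial), 1 point per gene and library, with the median as a line. Right, percent of all counts held by the 13 mitochondrial mRNAs, the 2 mitochondrial rRNAs and the nuclear-encoded members in each library, with 95% counting intervals. The mitochondrial mRNAs held 2.83% and 2.82% in the R-U87MG libraries and 3.58% and 3.92% in the U87MG libraries.

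The question of the first comparison was what HDAC6 depletion changes in TMZ-resistant cells. The subunit genes lay close to their control levels after si-HDAC6. The median log2 ratio to si-NC was 0.06 for the 81 nuclear members and -0.00 for the 13 mitochondrial ones, compared with -0.01 for all 13120 genes compared. Genes were counted as higher or lower where the log2 ratio was at least 0.322 above or below 0. Of the 94 members 6 were higher, beside 8.56% of all genes compared, and 0 were lower, beside 7.95% of all genes. No member reached 2-fold, a level passed upward by 0.694% and downward by 0.747% of all genes. Here and below, all genes compared were not matched to the members in level, and counting error is wider at low counts. The log2 ratio was above 0 for 56 of the 81 nuclear members, and the interval lay wholly above 0 for 20 and wholly below 0 for 3. Of the 13120 genes compared, 6421 were above 0, and the interval lay wholly above 0 for 1811 and wholly below 0 for 2158.

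By complex, the nuclear medians were 0.09 for complex I, 0.07 for complex II, 0.01 for complex III, 0.08 for complex IV and 0.00 for complex V. The mitochondrial genes gave 0.03 for complex I, -0.01 for MT-CYB of complex III, 0.02 for complex IV and -0.20 for complex V. All 4 subunits of succinate dehydrogenase were above 0, from SDHA at 0.04 to SDHB at 0.18, and only the interval of SDHB excluded 0 (0.07 to 0.28).

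**Figure D2:**
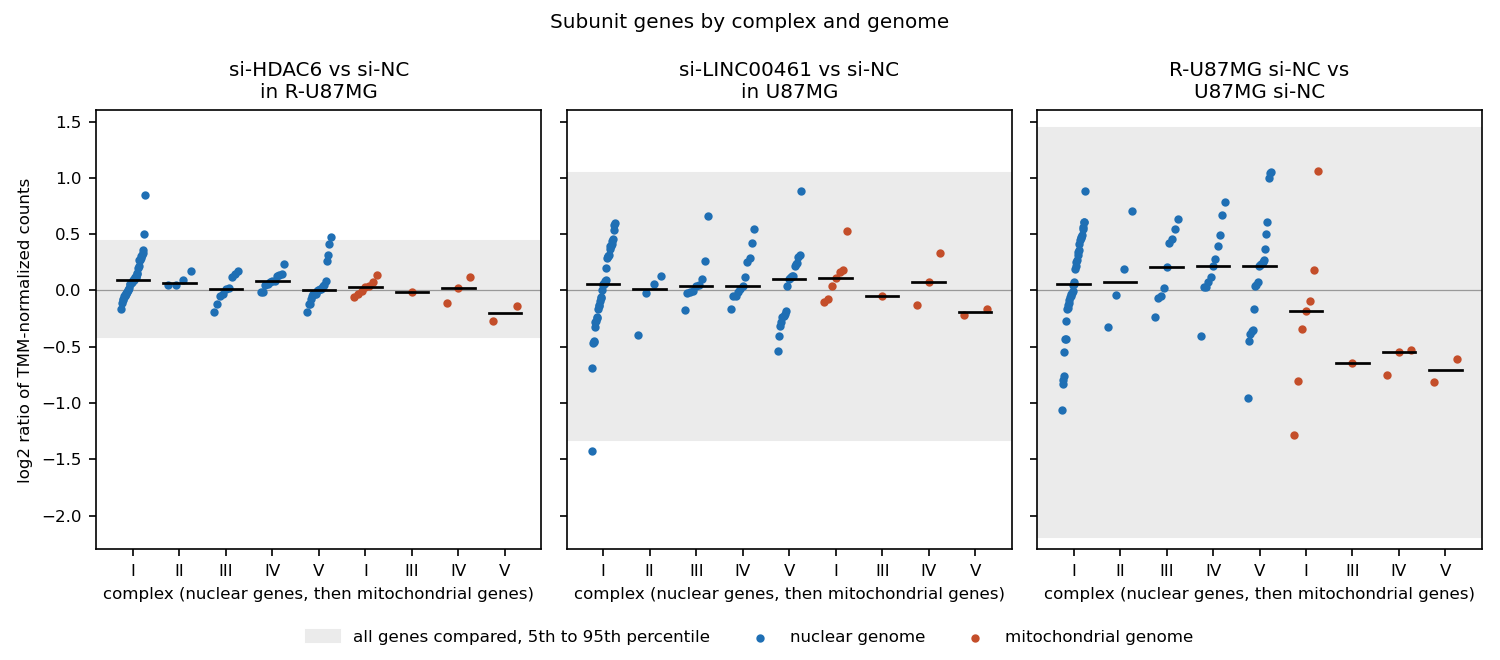
Log2 ratio of TMM-normalized counts of each compared subunit gene, by complex, for si-HDAC6 in R-U87MG, si-LINC00461 in U87MG and the R-U87MG against the U87MG control. Blue points are nuclear genes, orange points mitochondrial genes, black lines medians, and the grey band spans the 5th to the 95th percentile of all genes compared. NDUFS1 lies above the band in the left panel (0.85) and below it in the middle panel (-1.43), and the mitochondrial genes of complexes III, IV and V lie below 0 in the right panel.

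NDUFS1, the largest core subunit of complex I, which carries iron-sulfur clusters in the peripheral arm, had the highest ratio of the members compared. It lies on chromosome 2 from 206114817 to 206159603 on the minus strand (GRCh38). NDUFS1 stood at 27.04 CPM in R-U87MG si-NC and 49.1 CPM in R-U87MG si-HDAC6, from 450 and 618 counts. The log2 ratio was 0.85 (0.67 to 1.03), a 1.80-fold higher level that exceeded 98.9% of all genes compared. The other core subunits of complex I lay between -0.16 for NDUFV2 and 0.32 for NDUFS8 (0.21 to 0.42), so the interval of NDUFS1 stood clear of theirs.

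The other 5 higher members lay between 0.33 and 0.50. NDUFC2, an accessory subunit of complex I, had 129 and 139 counts and a log2 ratio of 0.50 (0.14 to 0.86), and its read-through gene NDUFC2-KCTD14 was at 0.00 (-0.23 to 0.23). ATP5MF-PTCD1 was at 0.48 (0.22 to 0.73), beside -0.05 (-0.19 to 0.10) for ATP5MF itself. The accessory subunits NDUFA7 and NDUFB7 were at 0.36 (0.09 to 0.63) and 0.33 (0.18 to 0.48), and ATP5MC1 is described next. For NDUFC2, NDUFA7 and ATP5MF-PTCD1 the deposited values were not whole fragments, which marks fragments divided between genes.

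The genes of the c subunit lay on both sides of 0 after si-HDAC6. ATP5MC1 had 19.9 CPM in the control and 26.6 CPM after si-HDAC6, with a log2 ratio of 0.41 (0.19 to 0.63). ATP5MC2 stood at 94.6 and 114 CPM with 0.26 (0.16 to 0.37), whereas ATP5MC3 stood at 112 and 99.2 CPM with -0.19 (-0.30 to -0.09). The ratio of their summed counts was 0.07 on the log2 scale. Opposite directions beyond counting error were thus present among genes for the same mature protein, and the sum was near 0.

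On the low side, MT-ATP6, the proton channel subunit of ATP synthase, had the lowest ratio of the members compared. It was at 1588 CPM in the control and 1329 CPM after si-HDAC6, with -0.27 (-0.30 to -0.24), and at -0.30 with the counts of its annotated copies added. MT-ATP8, on the same bicistronic mRNA, was at -0.14 (-0.19 to -0.09), and MT-CO3, which follows MT-ATP6 in the genome, at -0.11 (-0.13 to -0.09). MT-CO2 was at 0.12 (0.10 to 0.14), and MT-ND6, the mitochondrial mRNA of the other strand, at 0.14 (0.08 to 0.19). UQCRB, a small subunit of complex III, was at -0.19 (-0.30 to -0.09).

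The second comparison asked what LINC00461 depletion changes in parental cells. Here the median log2 ratio was 0.05 for the nuclear members and 0.04 for the mitochondrial ones, beside -0.00 for all 13210 genes compared. Of the 94 members 15 were higher by at least 0.322, beside 26.8% of all genes, and 9 were lower by as much, beside 28.2%. For 5 of these 24 (NDUFA7, NDUFC2, NDUFS3, UQCR11 and ATP5MF-PTCD1) the deposited values were not whole fragments. The intervals do not cover that division of fragments. NDUFS1 was the 1 member at least 2-fold lower, a level passed by 8.17% of all genes, and 0 members were 2-fold higher, a level passed by 5.42%. The range of the members, with 5% of the nuclear ones below -0.46 and 5% above 0.55, was narrower than that of all genes, at -1.33 and 1.04. The part of level in this difference was not tested.

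NDUFS1 stood at 30.4 CPM in U87MG si-NC and 11.1 CPM in U87MG si-LINC00461, from 608 and 198 counts. Its log2 ratio was -1.43 (-1.67 to -1.20), a 2.69-fold lower level, with 4.22% of all genes below it. Among all 4 libraries it was thus highest in R-U87MG si-HDAC6 and lowest in U87MG si-LINC00461, with the control libraries in between. Its deposited values were whole fragments, and 3.96% of its 50-base stretches occurred in other genes.

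Most of the other core subunits of complex I were below 0 as well. The 7 nuclear core subunits, which hold the flavin and the iron-sulfur clusters, had a median of -0.28. Of them 6 were below 0, as were 6630 of all 13210 genes compared. By at least 0.322, 3 of the 7 were lower and 1 higher, where 28.2% of all genes were lower and 26.8% higher. NDUFV1, which binds NADH and the flavin, was at 110 CPM in the control and 78.8 CPM after si-LINC00461, with -0.46 (-0.56 to -0.37). NDUFS8 was at 70.9 and 51.0 CPM with -0.46 (-0.58 to -0.34), and NDUFV2 at -0.28 (-0.42 to -0.14). NDUFS3 was the exception, at 0.37 (0.12 to 0.62), and its values were not whole fragments, with 18.0% of its stretches shared with other genes, among them its neighbour PTPMT1.

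The 30 accessory subunits of complex I had a median of 0.08, with 8 past the threshold of 0.322 above 0, a share near the 26.8% of all genes, and 3 below, where 28.2% of all genes were. NDUFA7 was at 0.60 (0.32 to 0.88). NDUFA4, counted among these 8 by its name although now known as a complex IV subunit, was at 0.58 (0.44 to 0.71). It had 786 counts in the control and 1031 after si-LINC00461. The lowest accessory subunit was NDUFS6, which carries zinc, at 27.2 CPM in the control and 16.7 CPM after si-LINC00461, with -0.69 (-0.90 to -0.49). Core and accessory subunits lay on either side of 0 by their medians, and their ranges overlapped. This split was chosen after values were seen, so it is a description only.

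**Figure D3:**
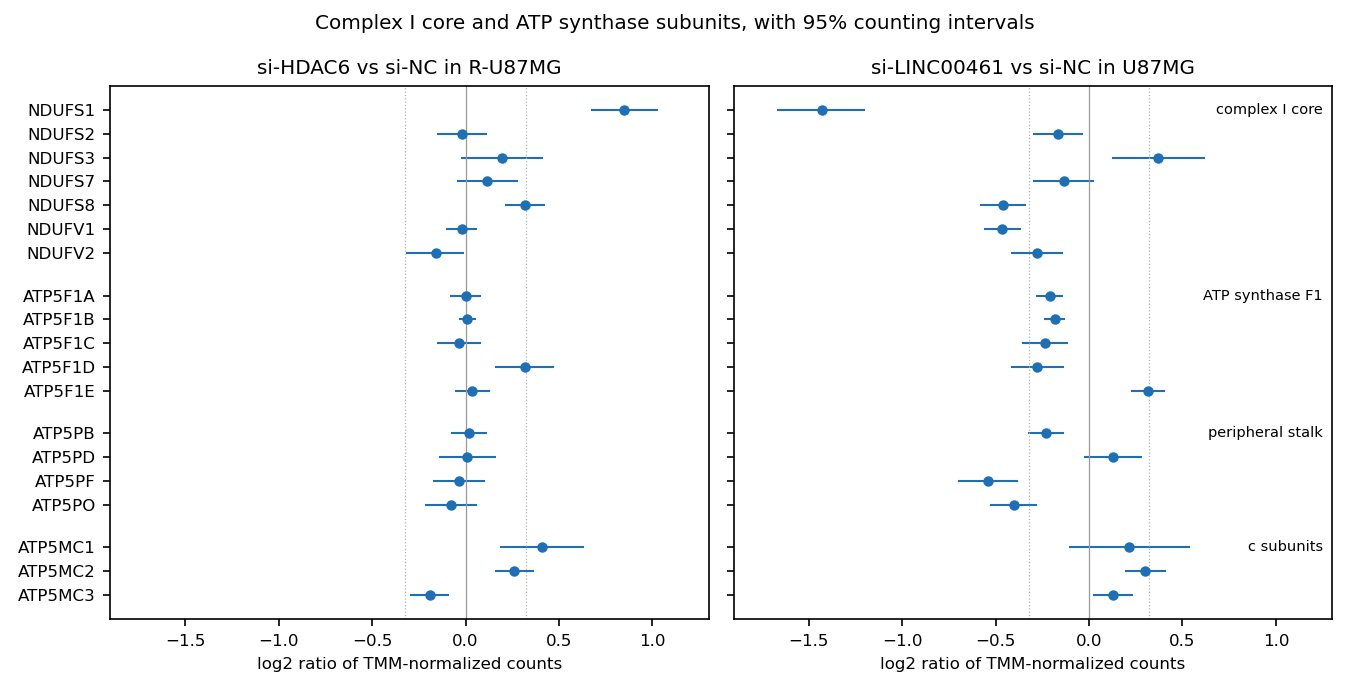
Log2 ratios of TMM-normalized counts with 95% counting intervals for the nuclear core subunits of complex I and for the F1, peripheral stalk and c subunits of ATP synthase, after si-HDAC6 in R-U87MG (left) and after si-LINC00461 in U87MG (right). Dotted lines mark the threshold of 0.322 on either side of 0. After si-LINC00461, 6 of 7 core subunits, 4 of 5 F1 subunits and 3 of 4 stalk subunits lie below 0 and the c subunits lie above it. Of all 13210 genes compared, 6630 lie below 0. The split into parts was chosen after values were seen.

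The parts of ATP synthase, a split also chosen after values were seen, had medians on either side of 0 after si-LINC00461. The 5 subunits of the catalytic F1 head had a median of -0.21, from ATP5F1D at -0.28 (-0.42 to -0.13) to ATP5F1E at 0.32 (0.23 to 0.41), and 4 of them were below 0. The 4 subunits of the peripheral stalk had a median of -0.32. Among them ATP5PF was at 43.0 CPM in the control and 29.3 CPM after si-LINC00461, with -0.54 (-0.70 to -0.38), and ATP5PO was at -0.40 (-0.53 to -0.28). The c subunit genes were above 0, with ATP5MC1 at 0.21 (-0.11 to 0.54), ATP5MC2 at 0.30 (0.19 to 0.41) and ATP5MC3 at 0.13 (0.02 to 0.24). ATP5IF1 was at -0.32 (-0.43 to -0.21), just short of the threshold, as was ATP5F1E. The highest ratio of any member was that of ATP5MF-PTCD1, at 0.88 (0.55 to 1.22) from 123 and 199 counts, most of whose sequence is shared with PTCD1 and ATP5MF.

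In complex II, SDHA, the flavoprotein subunit, was at 127 CPM in the control and 95.9 CPM after si-LINC00461, with -0.39 (-0.48 to -0.30), while SDHB, SDHC and SDHD lay between -0.02 and 0.13. In complex III, UQCRC1, a core protein, was at -0.18 (-0.24 to -0.11) and UQCR11, a small accessory subunit, at 0.66 (0.49 to 0.83). UQCRH and UQCRHL, a gene and its expressed copy, were at -0.02 and -0.00. In complex IV, COX7B was at 22.3 CPM in the control and 32.3 CPM after si-LINC00461, with 0.55 (0.37 to 0.73), and COX7A2 was at 0.43 (0.22 to 0.64). COX4I1 and COX8A were near 0, at -0.05 and -0.02, and COX6A1 was at -0.17 (-0.28 to -0.05).

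Across the nuclear members, Spearman's rho of the log2 ratio with the mean level was -0.43 and with transcript length -0.27 after si-LINC00461 (n = 81 genes of the same 2 libraries, which are not independent). Among all protein-coding genes compared the same coefficients were 0.05 and 0.02 (n = 11860). After si-HDAC6 they were -0.17 and -0.09 for the members. In U87MG the higher expressed subunit genes thus tended to have the lower ratios.

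The mitochondrial mRNAs lay on both sides of 0 after si-LINC00461. MT-ND5, a proton-pumping subunit of complex I, was at 3424 CPM in the control and 4876 CPM after si-LINC00461, with 0.53 (0.51 to 0.54). MT-CO1 was at 9995 and 12445 CPM with 0.33 (0.32 to 0.34). These were the 2 mitochondrial genes past the threshold. MT-ATP8 was at -0.21 (-0.25 to -0.18), MT-ATP6 at -0.17 (-0.19 to -0.15), MT-CO3 at -0.13 (-0.14 to -0.11) and MT-ND2 at -0.10 (-0.13 to -0.08). In the ratio of summed counts the 13 mRNAs were at 0.15, a summary in which abundant genes weigh more, and the nuclear members were at -0.04. As parts of the 13, MT-CO1 made up 27.9% of the counts in the control and 31.8% after si-LINC00461, and MT-ND5 made up 9.57% and 12.4%. MT-RNR2, the large rRNA, was at 0.39 (0.38 to 0.40) and MT-RNR1 at 0.18 (0.14 to 0.22).

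**Figure D4:**
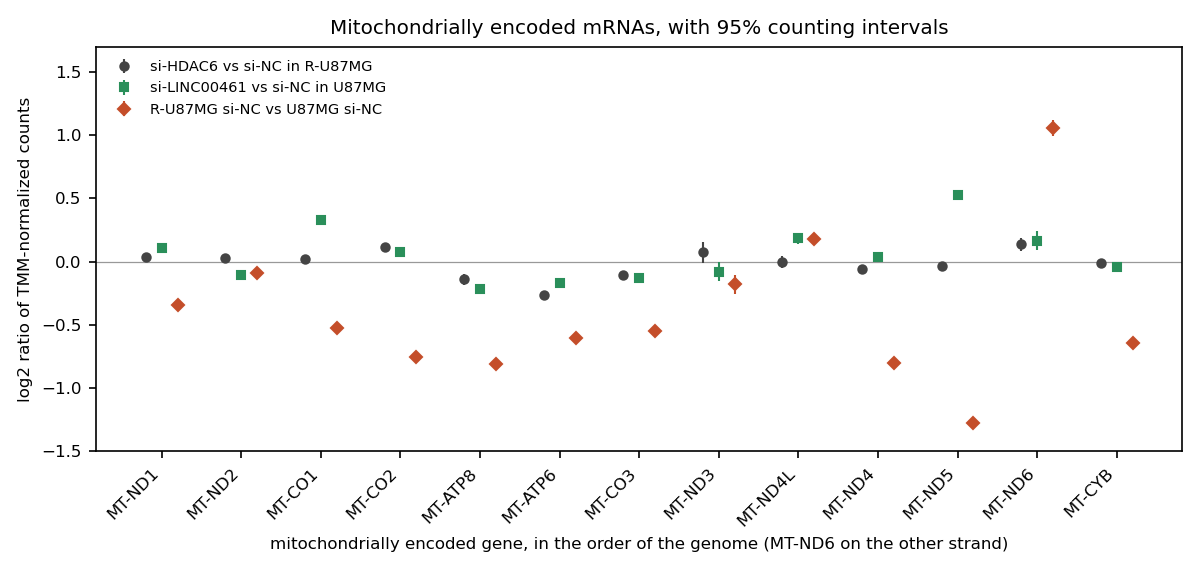
Log2 ratios of TMM-normalized counts of the 13 mitochondrially encoded mRNAs in the order of the mitochondrial genome, with 95% counting intervals, for the 3 comparisons. MT-ND5 is the highest gene after si-LINC00461 (0.53) and the lowest between the controls (-1.28), and MT-ND6, on the other strand, is the highest between the controls (1.06).

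The control libraries of TMZ-resistant and parental cells were set side by side as a description. They belong to pairs that the authors scaled separately, and the cell line, the TMZ in its medium and the handling of the pairs cannot be told apart. This comparison also shares its libraries with both knockdown comparisons. In R-U87MG the nuclear members had a median of 0.16 relative to U87MG and the mitochondrial ones a median of -0.55, beside 0.02 for all 13349 genes compared. Of the 95 members 28 were higher by at least 0.322, beside 34.8% of all genes, and 22 were lower by as much, beside 34.5%. With scaling to total counts, which moved the median of all genes by 0.26, these were 48 and 11, and the medians were 0.42 for the nuclear and -0.29 for the mitochondrial members. At 2-fold there were 3 higher and 2 lower, where 11.2% and 15% of all genes were. With TMM, 50 members were past 0.322 in either direction, and 11 of them had values that were not whole fragments. Among the 11 were MT-ND4, MT-CO1, MT-ATP8, NDUFC1, UQCR11 and ATP5MF-PTCD1. The intervals do not cover that division of fragments.

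Of the mitochondrial mRNAs 11 of 13 were below 0, beside 6526 of all 13349 genes compared. MT-ND5 was at 1690 CPM in R-U87MG si-NC and 3424 CPM in U87MG si-NC, a log2 ratio of -1.28 (-1.30 to -1.26) or 2.43-fold lower. MT-ND4 was at -0.80 (-0.82 to -0.79), MT-ATP8 at -0.81 (-0.85 to -0.78), MT-CO2 at -0.75 (-0.77 to -0.74), MT-CYB at -0.64 (-0.66 to -0.62) and MT-CO1 at -0.53 (-0.54 to -0.52). MT-ND1 was at -0.34, and MT-ND2 and MT-ND3, at -0.09 and -0.18, were above 0 with scaling to total counts, at 0.17 and 0.08. MT-ND4L was above 0, at 0.18 (0.14 to 0.22), although it shares its mRNA with MT-ND4.

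MT-ND6 was the highest of the 13. This gene is the single member on the light-strand transcript and lies at 14149 to 14673 on the minus strand, directly after the end of MT-ND5 at 14148. It was at 387 CPM in R-U87MG si-NC and 155 CPM in U87MG si-NC, with 1.06 (0.9978 to 1.12), and at 1.32 with scaling to total counts. The libraries were made strand-specifically, but whether the counting used strand is not given in the sources used here, and without it fragments of MT-ND6 and of unprocessed RNA from the other strand would not be told apart. MT-RNR1 was at 0.32 (0.28 to 0.37) and MT-RNR2 at -0.75 (-0.76 to -0.74). The part of RNA selection during library making in the ratios of MT-ND6 and the rRNAs was not tested.

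Among the nuclear members, ATP5MC1 was at 19.9 CPM in R-U87MG si-NC and 7.99 CPM in U87MG si-NC, with 1.05 (0.78 to 1.33), beside 0.26 for ATP5MC2 and 0.37 for ATP5MC3. ATP5S, an accessory factor of ATP synthase, was also at 1.05 (0.68 to 1.43), ATP5MF-PTCD1 at 0.99 (0.68 to 1.32) and ATP5F1B at 0.61 (0.56 to 0.66). COX5A was at 70.0 and 33.9 CPM with 0.78 (0.65 to 0.92), whereas its partner COX5B was at -0.40 (-0.55 to -0.25). SDHB, the iron-sulfur subunit of complex II, was at 0.71 (0.59 to 0.82) and SDHA, just short of the threshold, at -0.32 (-0.41 to -0.24). NDUFA12, an accessory subunit of complex I, was at 0.88 (0.59 to 1.19), NDUFB5 at 0.61 (0.43 to 0.78), UQCR11 at 0.64 (0.47 to 0.81) and UQCRC2 at 0.55 (0.29 to 0.81). The subunits of complexes I and V thus included both higher and lower members.

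On the low side, ATP5IF1, the inhibitor that blocks ATP hydrolysis by ATP synthase, was at 54.3 CPM in R-U87MG si-NC and 87.5 CPM in U87MG si-NC, with -0.95 (-1.07 to -0.83). NDUFC1 and NDUFB4, accessory subunits of complex I, were at -0.83 and -0.76. NDUFA4L2, a paralog of NDUFA4 that is known as a hypoxia-responsive gene, had 15 counts in the R-U87MG control and 32 in the U87MG control, with -1.06 (-2.08 to -0.16). It had 7 counts in R-U87MG si-HDAC6 and 3 in U87MG si-LINC00461. In U87MG, 32 and 3 counts correspond to an interval of -5.58 to -1.55, while NDUFA4 was higher after si-LINC00461, at 0.58.

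Other genes that serve oxidative phosphorylation were counted from lists. In the HDAC6 comparison the list medians ranged from -0.04 to 0.14, and the counts below stand beside 8.56% of all genes higher and 7.95% lower by at least 0.322. PET100, an assembly factor of complex IV, had 85 counts in the control and 8 after si-HDAC6, with -2.94 (-4.28 to -1.97), and was the 1 of 28 assembly factors of complexes III and IV past 2-fold. SSBP1, which binds single-stranded mitochondrial DNA, had 162 and 291 counts, with 1.23 (0.95 to 1.52), and was the 1 of 26 genes of mitochondrial DNA replication, transcription and mRNA stability past 2-fold. The 14 assembly factors of complex I had 2 members higher and 1 lower by at least 0.322, the 28 of complexes III and IV 0 and 2, the 7 of complex II and ATP synthase 3 and 0, the 26 genes of mitochondrial DNA replication, transcription and mRNA stability 2 and 2, the 12 genes of electron carriers and coenzyme Q synthesis 0 and 1, the 18 tricarboxylic acid cycle enzymes 0 and 1, the 76 mitochondrial ribosomal proteins 1 and 2, the 10 regulators of mitochondrial biogenesis 0 and 0, and the 17 glycolysis enzymes 1 and 0.

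After si-LINC00461 the lists stand beside 26.8% of all genes higher and 28.2% lower by at least 0.322. Of 75 mitochondrial ribosomal protein genes 23 were lower, a share near that of all genes, and 4 were higher, with a median of -0.17, from MRPS10 at -1.34 to MRPS6 at 0.88. The tricarboxylic acid cycle enzymes had a median of -0.15, with 6 of 18 lower and 3 higher, and IDH2 was the lowest at -0.90. Of the 12 genes of electron carriers and coenzyme Q synthesis 4 were lower and 1 higher (median -0.21). The assembly factors of complex I had 6 higher and 3 lower of 14, those of complexes III and IV 6 and 5 of 27, with LYRM7 at -1.18, and those of complex II and ATP synthase 3 and 3 of 7, with SDHAF3 at -1.09. Genes of mitochondrial DNA replication, transcription and mRNA stability were 7 higher and 6 lower of 26. Of the 10 regulators of mitochondrial biogenesis 5 were higher and 2 lower. PPARGC1A, the coactivator PGC-1α, had 85 counts in the control and 305 after si-LINC00461, with 2.02 (1.68 to 2.39), whereas MYC had 1449 and 297, at -2.10. Of the glycolysis enzymes 10 of 17 were lower and 2 higher (median -0.38), with ENO1 at -1.23.

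Between the controls, 34.8% of all genes were higher and 34.5% lower by at least 0.322, and 11.2% and 15% at 2-fold, beside the following counts. Of 17 glycolysis enzymes 13 were at least 2-fold lower in R-U87MG, with a median of -1.33, among them ALDOC at -3.88 (223 and 3295 counts) and PGK1 at -2.52, while LDHB was at 0.96. Of 26 genes of mitochondrial DNA replication, transcription and mRNA stability 12 were at least 2-fold higher, with a median of 0.91, led by TFB2M, a factor that starts mitochondrial transcription, at 1.67, and TWNK, the mitochondrial helicase, also at 1.67. In the same comparison the median of the mitochondrial mRNAs was -0.55. Of 75 mitochondrial ribosomal proteins 43 were higher by at least 0.322 and 7 lower (median 0.48). The regulators PPARGC1B and PPRC1 were at 1.92 and 1.65, and the median of these 10 genes was 0.40. Assembly factors of complex I had 9 of 14 higher and 3 lower (median 0.45), with NDUFAF5 at 2.43 (30 and 164 counts in U87MG and R-U87MG), those of complexes III and IV 20 and 3 of 28 (median 0.43), with COA7 at 2.22, and those of complex II and ATP synthase 1 and 5 of 7 (median -0.53). The tricarboxylic acid cycle enzymes had 11 of 18 higher and 3 lower (median 0.36). The carriers and coenzyme Q genes had 6 of 12 higher and 2 lower (median 0.26), with CYCS, cytochrome c, at 1.13. With scaling to total counts all these values are higher by 0.26, which leaves the glycolysis median below 0 and that of the complex II and ATP synthase factors below 0.

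**Figure D5:**
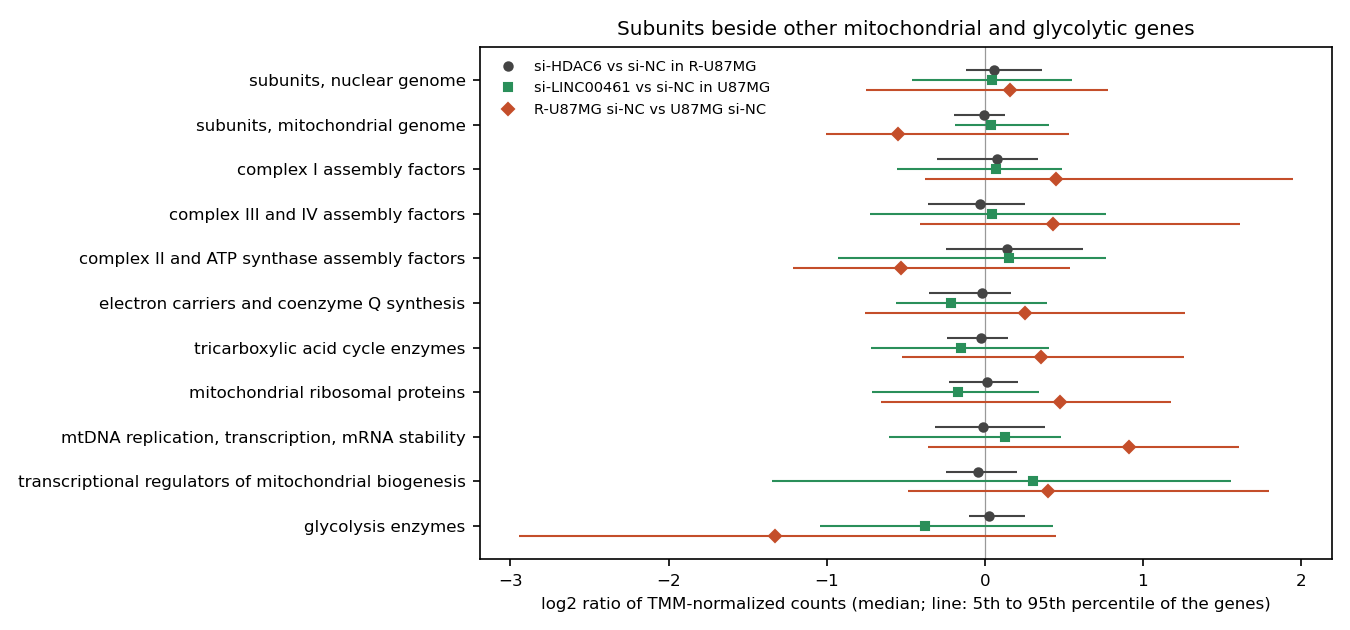
Median log2 ratio (symbols) and 5th to 95th percentile of the genes (lines) for the nuclear and mitochondrial subunits and for lists of other mitochondrial genes and glycolysis enzymes, in the 3 comparisons. Between the controls, the glycolysis enzymes have a median of -1.33 and the genes of mitochondrial DNA replication, transcription and mRNA stability one of 0.91, and after si-HDAC6 all medians lie between -0.04 and 0.14.

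The promoters of the nuclear members were searched, as background to their shared control, for the letters of motifs of factors known to act on respiratory genes. RefSeq promoters on GRCh38.p14, from 250 bases before to 50 after the start, were at hand for 71 of the 91 nuclear members. The letters of an NRF1 motif, the 10 bases in capitals in the windows of ATP5F1C, NDUFA8, NDUFB4 and SDHD below, which read the same on both strands, occurred in a promoter of 4 of the 71 (5.63%). They occurred in 1.24% of all 35116 promoters of this length and, counted by gene as for the members, in 1.52% of all 27305 genes. An ETS motif of the kind bound by GABPA, CCGGAAG or its reverse CTTCCGG, occurred in 21 members (29.6%), in 10.3% of all promoters and in 12.2% of all genes. A YY1 motif, AAGATGGC or GCCATCTT, occurred in 12 members (16.9%), in 2.89% of all promoters and in 3.52% of all genes. Among the protein-coding genes compared in U87MG the shares by gene were 2.72%, 22.6% and 6.72%. The 4 windows with the NRF1 letters, and the ETS letters in the promoter of NDUFS1, the member with the lowest ratio after si-LINC00461, are given with the motif in capitals and 15 bases on each side. They lie at chr10:7788140-7788179 (plus strand) for ATP5F1C, chr9:122159759-122159798 (minus) for NDUFA8, chr3:120596162-120596201 (plus) for NDUFB4, chr11:112086748-112086787 (plus) for SDHD and chr2:206159580-206159616 (minus) for NDUFS1.
ATP5F1C: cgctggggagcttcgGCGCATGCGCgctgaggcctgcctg
NDUFA8: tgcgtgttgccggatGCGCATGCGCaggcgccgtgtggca
NDUFB4: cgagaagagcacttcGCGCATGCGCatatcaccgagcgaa
SDHD: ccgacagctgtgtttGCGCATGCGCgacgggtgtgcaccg
NDUFS1: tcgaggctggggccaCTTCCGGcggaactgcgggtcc
No motif searched contains another. The genes with the NRF1 letters did not share a direction. After si-LINC00461 their log2 ratios were -0.24 for ATP5F1C, 0.39 for NDUFA8, -0.44 for NDUFB4 and 0.05 for SDHD, and between the controls they were 0.05, 0.26, -0.76 and 0.19. NRF1 itself had 317, 221, 275 and 179 counts in the 4 libraries. A match of letters is a description and not a bound site.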

How the data were processed

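RNA-seq of 4 libraries was analysed, 1 per group. The submitters' processing notes name bcl2fastq, Trimmomatic 0.36, HISAT2 and GRCh38.p13, and the counting program and its annotation are not given in the sources used here. The authors deposited estimated counts (expected counts) by Ensembl gene, which they had scaled with a factor for each library. Each value was divided by its factor and rounded, and 94.1% to 94.5% of the values above 0 were whole within 0.02. The design had foreseen plain counts. Symbols came from GENCODE 29, which holds 57888 of the 58226 IDs.

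For each comparison the 2 libraries were normalized by TMM (edgeR 4.0.16, R 4.3.3). The log2 ratio used counts plus 0.5 over the effective library size, which understates changes of low counts. The filter was a mean of 1 CPM over both libraries, and members were counted past 0.322 and past 1 on the log2 scale. TPM used the median length of the protein-coding transcripts. No test was possible with 1 library per group. Intervals are 95% Clopper-Pearson intervals of each gene's split between libraries, and CPM and shares are of the library total. The intervals were also run on simulated counts with counting error alone and known totals. That run checks the code, and not how well the intervals hold for these libraries.

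The members and lists were chosen with earlier results of these data known. Named are the 13 mitochondrial genes, the 2 highest and 2 lowest nuclear members of each complex, members past 2-fold, the 3 highest levels per complex, fixed paralogs, and of each list the extremes and up to 4 genes past 2-fold each way. Not every gene that this rule names is reported here. The motifs, the split of complexes into parts, NRF1 and further members were chosen after values were seen: ATP5MF, NDUFA7, NDUFB7, NDUFC2-KCTD14 and NDUFS8 in the HDAC6 comparison, ATP5F1C, ATP5F1D, NDUFA8, NDUFB4, NDUFS3, NDUFS8, NDUFV1 and NDUFV2 in the LINC00461 comparison, and ATP5F1C, ATP5MF-PTCD1, NDUFA8 and NDUFB4 between the controls. Alternatives were DESeq2 1.42.0 size factors, total counts, TMM without mitochondrial genes, the authors' scaling, a pseudocount of 5, no filter, thinning to 12596072 counts, adding pseudogene copies, whole fragments only, summed counts and 1.5-fold. Scripts ran under Python 3.11.15 with numpy 2.4.6, scipy 1.17.1, pandas 2.3.3 and matplotlib 3.10.9.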

Additional observations from a re-analysis of the deposited data

How the results depend on the processing

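No paired analysis was possible because each group has 1 library and no result comes from a test. Of the 6 medians and 6 counts of members, the ones that moved beyond the counting interval of the member at the median, or by over 1.5 times, were these. With total counts the R-U87MG against U87MG medians were 0.42 (nuclear) and -0.29 (mitochondrial), with 48 members higher and 11 lower, and the mitochondrial median after si-LINC00461 was 0.023. With DESeq2 size factors that median was 0.0057, with whole fragments only 0.072, and as a ratio of summed counts 0.15. Between the controls the mitochondrial median was -0.45 with whole fragments only and -0.60 as a ratio of summed counts. After si-HDAC6, 3 members were higher with whole fragments only, and 2 were lower without the filter on low counts. At 1.5-fold, 1 member was higher after si-HDAC6, 3 were higher and 2 lower after si-LINC00461, and 12 were higher and 11 lower between the controls. The nuclear median after si-LINC00461 was -0.04 as a ratio of summed counts, so its sign rests on the summary. The share of the 13 mitochondrial mRNAs was 2.89%, 2.88%, 3.66% and 4.01% of protein-coding counts, and 2.898%, 2.874%, 3.65% and 3.98% with pseudogene copies added, in the order R-U87MG si-NC, R-U87MG si-HDAC6, U87MG si-NC and U87MG si-LINC00461. Of the log2 ratios of the members named by rule, under the alternatives run, 1048 stayed within their counting interval. Another 59 moved beyond it, 43 of these with total counts. The 1048 include 130 without the filter on low counts and 111 with whole fragments only. Those settings only choose genes and leave each gene's own ratio as it was, so these results could not move. They also include 130 with TMM without mitochondrial genes, which left the median of all genes almost unchanged. The 1048 is therefore not a measure of stability. None of the log2 ratios past 0.322 changed sign. The cause of the moves was not tested, other than the shift of 0.26 that total counts give to every gene between the controls. With 3 counts at 0.150 to 0.238 CPM, depth limits NDUFA4L2. NDUFA3 and NDUFA6, complex I subunits in general use, are also listed at 0 in every library, so a listed 0 is not read as a low level, and its cause was not tested.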
